A study of Homo sapiens with 6 samples.

Results

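Cells obtain cholesterol by making it from acetyl-CoA and by taking it up from lipoproteins, and 31 genes of these routes and of their control were followed in the human lung cancer cell line 95D after removal of glutamine or of glucose. The genes were chosen by symbol, and all 31 were found among the 59609 gene names measured. They comprise 8 genes of the mevalonate and isoprenoid stage, 12 of the stage that leads by way of squalene to cholesterol, 4 of SREBP2 control, 4 of uptake and intracellular transport, and 3 of efflux, liver X receptor (LXR) signalling and storage. In both deprivations the transcript of the sterol regulator SREBF2 was higher than in control medium, and 15 and 14 of the 20 transcripts of synthesis enzymes were called lower without glutamine and without glucose. With cyclic loess, which removes trends of change with abundance, 6 and 8 were, beside 3407 and 4450 of all 16598 genes tested. With scaling to the total 4 and 5 were, beside 483 and 1765 of all genes tested. At the scaling used for the main results, 64.9% and 52.6% of the 4472 genes that averaged 10 FPKM or more were called lower. SQLE, STARD4 and NPC2 were lower without glutamine and higher without glucose. Their rises without glucose were called under every alternative run. Their falls without glutamine were not called with scaling to the total. Those of SQLE and NPC2 were also lost after cyclic loess, and that of STARD4 on the values as deposited. With trends over GC content and length removed, that of STARD4 was lost, and with the replicate number added to that fit that of NPC2 too.

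Sterol synthesis begins with acetyl-CoA, passes through mevalonate to the isoprenoid farnesyl diphosphate, and from there leads either to squalene and the sterol ring or to the prenyl groups that anchor proteins in membranes. The master regulator SREBP2, the product of SREBF2, is made as a precursor held in the endoplasmic reticulum (ER) by SCAP and the INSIG proteins. When sterols are scarce, SCAP carries the precursor to the Golgi, where proteases release the part that enters the nucleus and switches on genes of synthesis and uptake, SREBF2 and INSIG1 among them. Oxysterols, by contrast, activate LXR, which switches on genes of efflux and of receptor breakdown. Glucose and glutamine both supply carbon for acetyl-CoA in cultured cancer cells.

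RNA was measured in wild-type 95D cells that were seeded for 24 h in complete medium and then grown for 48 h in glutamine-free DMEM (1 library used of 2 labelled), in glucose-free DMEM (2 libraries) or in control DMEM (2 libraries). All libraries came from this single line, and since glutamine deprivation has a lone library, its spread is taken to be that of the other groups. Media held 10% serum. In both deprived media it was dialyzed, while the labels name no dialysis for the control, so medium and serum cannot be told apart in a comparison with control. Dialyzed serum is common to both deprivations. Replicates are not labelled as separate cultures, and p-values then measure only the spread between these samples, possibly a technical one. In bulk RNA, fewer cells of a type and less RNA per cell cannot be told apart.

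Levels are FPKM, fragments per transcript length and sequencing depth, divided by a scaling factor per library, so that levels of genes can be compared per length. Depth inferred from the values was 34600000 to 48950000 reads, and each member rested on at least 191 inferred reads in every library. Fold changes are differences of log2(FPKM + 1) ± SE, which understate changes of low genes. A gene was called where limma's adjusted p (Benjamini-Hochberg over 16598 genes, two-sided) was under 0.05. The glutamine-deprived library gave 1.51% of its FPKM to mitochondrial messenger RNAs, against 0.585% to 0.768% in the other 4 libraries, and the part of this in the results was not tested. Against the epithelial lung label, KRT8 and KRT18 were present (4.15 to 21.7 FPKM), EPCAM and CDH1 stayed at or under 0.249 FPKM, KRT19 and SFTPB were listed at 0 in all 5 libraries, and the lung factor NKX2-1 lay between 0.709 and 1.17 FPKM. The 15 markers of fibroblasts, blood and endothelium summed to 3.12 FPKM without glutamine, 0.856 and 0.908 FPKM without glucose, and 1.59 and 2.01 FPKM in control medium. Only COL1A1 among these 15 reached 1 FPKM in any library, and CD3E was at 0 throughout.

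Promoter letters are shown because SREBP2 acts at a sterol regulatory element with the help of the factor NF-Y, which binds CCAAT, and often of SP1, which binds GGGCGG. RefSeq promoters on GRCh38.p14, one for each listed start, were matched for 28 of the 31 members with 37 starts, some of which overlap; ACAT2, FDFT1 and SQLE had no entry. TCACNCCAC, a form of the sterol regulatory element, was searched on both strands and occurred at 1 member start, that of SREBF2, and at 1.13% of all 35116 starts. CCAAT occurred on either strand at 22 of the 37 member starts (59.5%), against 34.6% of all starts and 35.2% of the 14259 starts of tested genes. GGGCGG occurred at 33 of the 37 (89.2%), against 45% of all starts and 67.6% of those of tested genes. A match describes letters only, and other forms of the element were not searched. Of the 12 members called with a log2 fold change of at least 0.5 in either direction in any of the 3 comparisons, ACAT2 and SQLE had no entry, and EBP and NPC2 held CCAAT only past the 5′ end of the gene as GENCODE 29 gives it. The other 8 are shown, each before that 5′ end and 5′ to 3′ on the gene's strand, with CCAAT and the element in capitals; ATTGG is CCAAT on the opposite strand.
SREBF2, chr22:41832952-41833023, plus strand, with the sterol regulatory element at -133 and an inverted CCAAT at -106 from the start: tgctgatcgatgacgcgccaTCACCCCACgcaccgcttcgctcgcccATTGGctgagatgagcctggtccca
INSIG1, chr7:155297688-155297732, plus strand: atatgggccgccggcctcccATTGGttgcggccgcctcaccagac
MSMO1, chr4:165327464-165327617, plus strand: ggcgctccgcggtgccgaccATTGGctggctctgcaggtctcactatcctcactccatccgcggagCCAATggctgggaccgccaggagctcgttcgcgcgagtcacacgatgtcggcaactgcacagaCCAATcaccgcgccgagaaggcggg
NSDHL, chrX:152830815-152830966, plus strand, where a CCAAT and an inverted CCAAT share 2 bases: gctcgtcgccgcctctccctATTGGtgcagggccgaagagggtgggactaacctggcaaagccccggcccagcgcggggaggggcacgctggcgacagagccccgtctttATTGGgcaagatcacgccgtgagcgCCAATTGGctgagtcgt
STARD4, chr5:111512641-111512716, minus strand: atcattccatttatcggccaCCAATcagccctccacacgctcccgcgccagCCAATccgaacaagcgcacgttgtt
IDI1, chr10:1049212-1049354, minus strand: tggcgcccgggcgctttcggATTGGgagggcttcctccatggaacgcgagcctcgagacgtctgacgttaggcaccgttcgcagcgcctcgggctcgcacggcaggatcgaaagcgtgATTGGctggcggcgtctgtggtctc
FDPS, chr1:155308670-155308714, plus strand: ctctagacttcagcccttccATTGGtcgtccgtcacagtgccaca
TM7SF2, chr11:65111778-65111822, plus strand: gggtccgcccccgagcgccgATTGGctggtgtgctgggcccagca

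Without glutamine, 4 members were higher and 19 lower than in control medium, and 8 were not called. Without glucose, 9 were higher and 17 lower, and 5 were not called. Changes of single genes were common in these libraries: 51.1% of the 16598 genes were called in glutamine deprivation, 24.6% as higher and 26.4% as lower, and 54.8% in glucose deprivation, 26.5% as higher and 28.3% as lower. Both comparisons use the same 2 control libraries, so their calls share error. The share of members called lower, 61.3% and 54.8%, stood above the share of all genes, and that of members called higher was 12.9% and 29%. The members' median log2 fold change was -0.34 without glutamine and -0.16 without glucose, against 0.04 and 0.02 over all genes tested. No member changed 2-fold or more on the log2(FPKM + 1) scale. The summed level of the 31 members was 481.5 FPKM without glutamine, 569.7 and 581.3 FPKM without glucose, and 653.8 and 654.2 FPKM in the control libraries. The groups did not overlap at this scaling, but with each library scaled to its total they would.

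These counts depended on how the libraries were scaled, and abundant transcripts as a whole were lower after deprivation. Over the 4472 genes of 10 FPKM or more, the median log2 fold change was -0.31 without glutamine and -0.17 without glucose. Of the 21 members in this range, 17 and 14 were called lower, with medians of -0.47 and -0.21. A cyclic loess left 9 members lower without glutamine and 11 without glucose, beside 3407 and 4450 of all 16598 genes. Scaling each library to its total, of which 11.4% to 13.4% came from a single small nuclear or signal recognition RNA, moved the median of all genes to 0.32 and 0.12. It left 4 and 5 members lower, beside 483 and 1765 of all 16598 genes. With scaling to the total the members' medians were -0.05 and -0.10, below those shifted medians of all genes, and the members still lower were ACAT2, IDI1, MSMO1 and NSDHL without glutamine and IDI1, FDPS, MSMO1, NSDHL and EBP without glucose. With trends over GC content and length removed, 13 members were higher and 13 lower without glucose, with a median of -0.07. Without glutamine 4 were then higher and 15 lower, with a median of -0.13. In that fit 4455 of all 16598 genes were lower without glucose and 3992 without glutamine. Without glutamine the median of all genes was 0.17 on the values as deposited and -0.08 with upper-quartile scaling. The share of all calls that were higher was 48.2% without glutamine and 48.4% without glucose; it was 67.1% and 54.2% on the values as deposited, 31.4% and 39.0% with upper-quartile scaling, and 91.8% and 67.6% with scaling to the total. Without control replicate 2 the members called higher numbered 2 without glutamine and 5 without glucose, and without control replicate 1 those lower without glucose numbered 11.

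**Figure D1:**
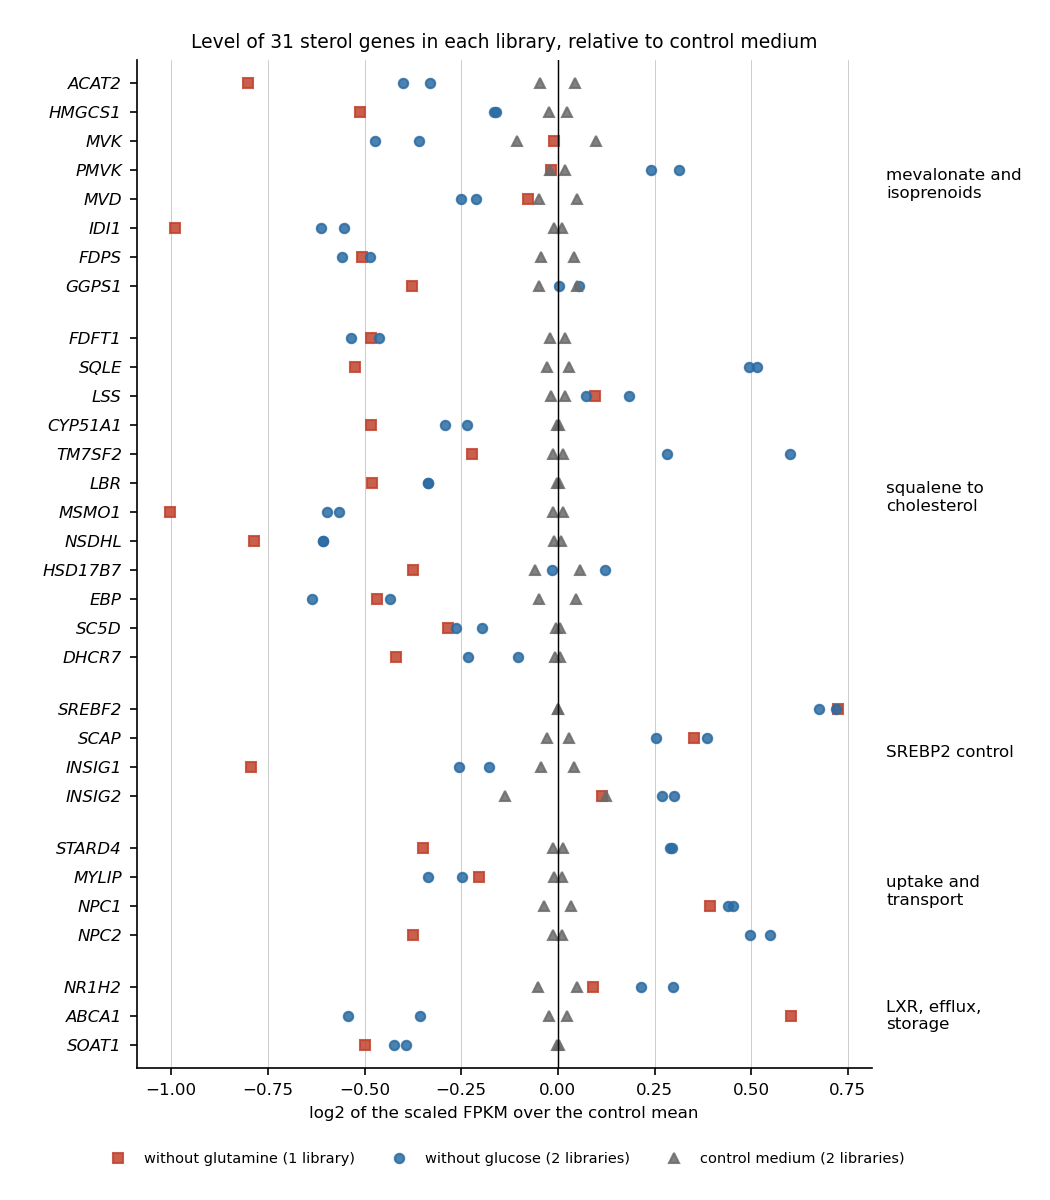
Level of each of the 31 members in each library, as log2 of the scaled FPKM over the control mean (x axis), grouped by role (y axis): squares, without glutamine (1 library); circles, without glucose (2 libraries); triangles, control medium (2 libraries). SREBF2 lies right of the control line in all 3 deprived libraries, IDI1, MSMO1 and NSDHL lie left of it, and SQLE, STARD4 and NPC2 lie on opposite sides of it in the 2 deprivations.

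Among the 4 genes of SREBP2 control, 2 were higher and 1 lower without glutamine, and 3 were higher and 1 lower without glucose: SREBF2 and SCAP were higher and INSIG1 lower in both. Of all genes tested, 24.6% were higher and 26.4% lower without glutamine, and 26.5% and 28.3% without glucose. The counts of each role below stand against these shares. SREBF2, which encodes the regulator itself (chromosome 22, 41833079 to 41907308 on GRCh38), had 21.4 FPKM in the library without glutamine, 20.7 and 21.3 FPKM in those without glucose, and 12.9 FPKM in both control libraries. All 3 deprived libraries stood above both controls by a similar distance. Its mean was 1.65-fold higher without glutamine (log2 fold change 0.68 ± 0.05, adjusted p = 4.80e-05, limma) and 1.62-fold higher without glucose (0.66 ± 0.04, adjusted p = 1.62e-05). These calls stood under every alternative run, with log2 fold changes of 0.53 to 1.01 without glutamine and 0.58 to 0.81 without glucose over the 4 other scalings. SREBF2 is the member whose promoter held TCACNCCAC, shown above.

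SCAP, the escort that carries the SREBP2 precursor to the Golgi, had 19.1 FPKM without glutamine, 17.8 and 19.5 FPKM without glucose, and 14.6 and 15.2 FPKM in the control libraries. Deprived and control libraries did not overlap, and the log2 fold changes were 0.33 ± 0.06 without glutamine (adjusted p = 0.00357, limma) and 0.30 ± 0.05 without glucose (adjusted p = 0.00191). Without control replicate 2 both calls of SCAP were lost (adjusted p = 0.0632 and 0.0555, limma), and upper-quartile scaling ended the call without glutamine (adjusted p = 0.0509). INSIG1, which retains SCAP in the ER and is itself a target of SREBP2, had 22.6 FPKM without glutamine, 32.8 and 34.6 FPKM without glucose, and 38.0 and 40.4 FPKM in the control libraries. The order was the same throughout, with control highest and glutamine deprivation lowest and no overlap. INSIG1 fell by 0.77 ± 0.06 on the log2 scale without glutamine (adjusted p = 6.02e-05, limma) and by 0.21 ± 0.05 without glucose (adjusted p = 0.00737). The smaller change, without glucose, was not called without control replicate 1 (adjusted p = 0.105) or without glucose-deprived replicate 1 (adjusted p = 0.0607), and had the opposite sign after cyclic loess (0.03, adjusted p = 0.657). In all, this smaller change lost its call in 7 of 18 alternatives, scaling to the total among them (-0.10, adjusted p = 0.664, limma). The larger change, without glutamine, was not called with scaling to the total alone (-0.46, adjusted p = 0.0519). INSIG2, a relative of INSIG1 that is not driven by SREBP2 in the same way, had 3.75 FPKM without glutamine, 4.18 and 4.27 FPKM without glucose, and 3.15 and 3.78 FPKM in the control libraries. The glutamine-deprived value of INSIG2 lay between the controls; the log2 fold change was 0.09 ± 0.10 without glutamine (adjusted p = 0.452, limma) and 0.23 ± 0.08 without glucose (adjusted p = 0.0391), a call lost without control replicate 2 (0.254) or either glucose-deprived replicate (0.151 and 0.180).

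**Figure D2:**
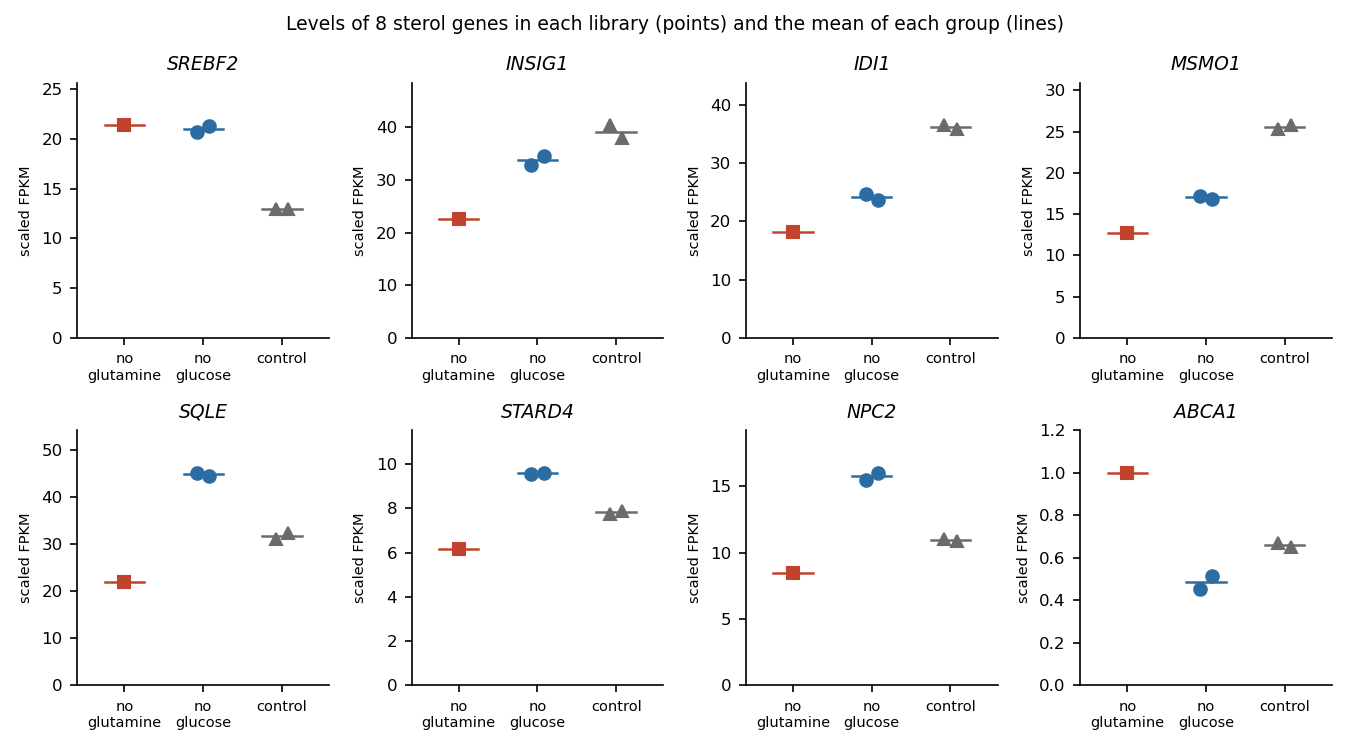
Scaled FPKM (y axes, from 0) of 8 members in each library (points) with the mean of each group (lines), in glutamine deprivation, glucose deprivation and control medium from left to right. SREBF2 was near 21 FPKM in all 3 deprived libraries and near 13 FPKM in the controls, while SQLE was 22.0 FPKM without glutamine, 44.6 and 45.2 FPKM without glucose, and 31.02 and 32.3 FPKM in control medium.

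In the mevalonate and isoprenoid stage, 5 of 8 genes were lower and none higher without glutamine, and 6 were lower and 1, PMVK, higher without glucose. The stage summed to 127.6 FPKM without glutamine, 151.9 and 152.5 FPKM without glucose, and 187.6 and 187.9 FPKM in the control libraries. ACAT2, the cytosolic thiolase that joins acetyl-CoA units in the opening step, had 25.8 FPKM without glutamine, 34.1 and 35.8 FPKM without glucose, and 43.6 and 46.4 FPKM in the control libraries. The groups of ACAT2 did not overlap, and the log2 fold changes were -0.78 ± 0.06 and -0.36 ± 0.05 in glutamine and glucose deprivation (adjusted p = 5.54e-05 and 0.000534, limma). The call without glucose was lost after cyclic loess (-0.11, adjusted p = 0.0664) and with scaling to the total (-0.25, adjusted p = 0.240). On the opposite strand ACAT2 shares up to 397 exonic bases with TCP1 (63.0 to 117.7 FPKM) and up to 1106 with SOD2 (6.74 to 9.84 FPKM). It also shares up to 1309 with SOD2-OT1 (0.905 to 1.78 FPKM) on that strand. As the strand setting is not given, reads of these genes and of ACAT2 cannot be told apart there. HMGCS1, the synthase of the next step, had 14.01 FPKM without glutamine, 17.8 and 17.9 FPKM without glucose, and 19.7 and 20.3 FPKM in the control libraries. It was lowest without glutamine (-0.48 ± 0.05 on the log2 scale, adjusted p = 0.000198, limma), a call lost with scaling to the total (-0.19, adjusted p = 0.477). Its smaller change without glucose (-0.15 ± 0.04, adjusted p = 0.0153, limma) lost its call in 7 of 18 alternatives. Among these were the values as deposited (-0.11, adjusted p = 0.081) and scaling to the total (-0.05, adjusted p = 0.847). The call was also lost without control replicate 1 (-0.13) or 2 (-0.18), and with trends over GC content and length removed, with or without a replicate block. After cyclic loess the change had the opposite sign (0.01, adjusted p = 0.917).

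Further down this stage, IDI1 and FDPS were lower in both deprivations. IDI1, the isomerase that makes the reactive isoprenoid unit (chromosome 10, 1039152 to 1049170), had 18.2 FPKM without glutamine, 23.7 and 24.7 FPKM without glucose, and 36.0 and 36.5 FPKM in the control libraries. Its mean was 0.503 of the control without glutamine and 0.668 without glucose, among the lowest ratios of the 31 members. Its log2 fold changes were -0.95 ± 0.05 (adjusted p = 2.61e-05, limma) and -0.56 ± 0.04 (adjusted p = 3.37e-05), and both calls stood under every alternative run. FDPS, which makes farnesyl diphosphate, had 30.6 FPKM without glutamine, 29.5 and 30.98 FPKM without glucose, and 42.1 and 44.7 FPKM in the control libraries. All 3 deprived libraries of FDPS lay together below the controls, with log2 fold changes of -0.49 ± 0.06 without glutamine and -0.51 ± 0.05 without glucose (adjusted p = 0.000335 and 9.77e-05, limma). The call without glucose stood under every alternative run, while that without glutamine was lost after cyclic loess (-0.10, adjusted p = 0.248) and with scaling to the total (-0.18, adjusted p = 0.490).

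The remaining genes of the stage were called in 1 deprivation only. The mevalonate kinase gene MVK was lower without glucose (-0.31 ± 0.07, adjusted p = 0.00670, limma) and not called without glutamine (-0.01, adjusted p = 0.958); it shares 225 exonic bases with MMAB. MVD, the decarboxylase, was likewise lower without glucose (-0.20, adjusted p = 0.0134) and not called without glutamine (-0.07, adjusted p = 0.408). PMVK, the phosphomevalonate kinase gene, was higher without glucose (0.26, adjusted p = 0.00478) and stood at -0.02 without glutamine (adjusted p = 0.851); after cyclic loess it was called higher without glutamine (0.27, adjusted p = 0.0131). Each of these 3 calls depended on single libraries: that of MVK was lost without control replicate 2 (0.088) or glucose-deprived replicate 2 (0.073), that of MVD without control replicate 1 (0.128) or glucose-deprived replicate 1 (0.0737), and that of PMVK when either control replicate was left out (0.0501 and 0.0663). GGPS1, which makes geranylgeranyl diphosphate for protein prenylation, was lower without glutamine (-0.35 ± 0.06, adjusted p = 0.00217) and not called without glucose (0.03, adjusted p = 0.668). Exons of GGPS1 (11.7 to 15.8 FPKM) overlap those of ARID4B (10.7 to 14.8 FPKM) and TBCE (5.02 to 5.84 FPKM). In 1 alternative, trends with GC content and length were removed in a fit with the replicate number as a block. There the change of GGPS1 without glutamine had the opposite sign (0.02, adjusted p = 0.858, limma).

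From squalene to cholesterol, 10 of 12 genes were lower and none higher without glutamine, while without glucose 8 were lower and 2, SQLE and TM7SF2, higher. The stage summed to 243.1 FPKM without glutamine, 287.3 and 293.9 FPKM without glucose, and 341.6 and 345.5 FPKM in the control libraries. For the 20 synthesis genes together, 15 were lower without glutamine and 14 without glucose, with medians of -0.46 and -0.24. Of all genes of 10 FPKM or more, 64.9% and 52.6% were lower. With cyclic loess 6 and 8 synthesis genes were lower, with medians of -0.11 and -0.08, beside 3407 and 4450 of all 16598 genes. With scaling to the total 4 and 5 were lower, beside 483 and 1765 of all genes. MSMO1, the oxidase that strips methyl groups from the sterol ring (chromosome 4, 165327623 to 165343160), had 12.7 FPKM without glutamine, 16.9 and 17.2 FPKM without glucose, and 25.3 and 25.7 FPKM in the control libraries. Its mean was 0.499 of the control without glutamine and 0.668 without glucose, much as for IDI1. The log2 fold changes of MSMO1 were -0.95 ± 0.05 (adjusted p = 2.76e-05, limma) and -0.56 ± 0.04 (adjusted p = 4.15e-05). NSDHL, the dehydrogenase that works with MSMO1 in removing these methyl groups (chromosome X, 152830967 to 152869729), had 17.3 FPKM without glutamine, 19.5 and 19.6 FPKM without glucose, and 29.6 and 29.95 FPKM in the control libraries. It lay below both controls in every deprived library, with log2 fold changes of -0.75 ± 0.05 and -0.58 ± 0.04 (adjusted p = 4.80e-05 and 3.62e-05, limma). The calls of MSMO1 and NSDHL against control stood under every alternative run. HSD17B7, the ketoreductase that completes this cycle, was not called without glucose (0.04, adjusted p = 0.606) and was lower without glutamine (-0.29 ± 0.08, adjusted p = 0.0198, limma), a call lost without control replicate 1 (0.0693) or 2 (0.137). In all, that call was lost in 8 of 17 alternatives, among them the values as deposited (-0.16) and scaling to the total (-0.05). The near-copy HSD17B7P2, at 1.25 to 2.09 FPKM, can share reads with HSD17B7, so the level of HSD17B7 is uncertain.

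SQLE, which adds the oxygen that lets squalene close into a ring, differed in direction between the 2 deprivations. It had 22.0 FPKM without glutamine, 44.6 and 45.2 FPKM without glucose, and 31.02 and 32.3 FPKM in the control libraries. The controls therefore lay between the deprivations, with no overlap. Its log2 fold change was -0.50 ± 0.05 without glutamine (adjusted p = 0.000158, limma) and 0.49 ± 0.04 without glucose (adjusted p = 5.69e-05). The rise without glucose stood under every alternative run; the fall without glutamine was not called after cyclic loess (-0.11, adjusted p = 0.117) or with scaling to the total (-0.20, adjusted p = 0.452). TM7SF2, a sterol reductase of low abundance, had 2.58 FPKM without glutamine, 3.66 and 4.57 FPKM without glucose, and 2.98 and 3.04 FPKM in the control libraries. The glucose-deprived replicates of TM7SF2 differed from each other by more than the controls did. Its log2 fold change was -0.16 ± 0.11 without glutamine (adjusted p = 0.259, limma) and 0.34 ± 0.09 without glucose (adjusted p = 0.0141), a call lost without control replicate 1 (0.136), control replicate 2 (0.117) or glucose-deprived replicate 2 (0.0835).

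LBR, which has the same reductase activity as TM7SF2 and also anchors chromatin to the nuclear lamina, was the most abundant member together with CYP51A1. It had 48.0 FPKM without glutamine, 53.1 FPKM in both libraries without glucose, and 66.9 and 67.1 FPKM in the control libraries. It was lower in both deprivations, with log2 fold changes of -0.47 ± 0.05 and -0.33 ± 0.04 (adjusted p = 0.000158 and 0.000274, limma). Both calls of LBR were lost after cyclic loess (-0.03 and -0.08, adjusted p = 0.655 and 0.123) and with scaling to the total (-0.16 and -0.22, adjusted p = 0.571 and 0.321). CYP51A1, the lanosterol demethylase, was lower as well (-0.47 and -0.26, adjusted p = 0.000198 and 0.00119); its exons overlap those of AC000120.3, listed at 35.3 to 50.4 FPKM. Both calls of CYP51A1 were lost after cyclic loess (-0.03 and -0.01, adjusted p = 0.601 and 0.889), with scaling to the total (-0.16 and -0.15, adjusted p = 0.559 and 0.515), and in the fit with the GC and length trend removed and a replicate block (-0.12 and -0.11, adjusted p = 0.137 and 0.0574). FDFT1, the squalene synthase gene, was lower in both deprivations (-0.46 and -0.48, adjusted p = 0.000289 and 8.61e-05), and its 3 deprived libraries lay between 19.5 and 20.47 FPKM, below 27.8 and 28.6 FPKM in the control libraries. After cyclic loess FDFT1 was called without glucose (-0.28, adjusted p = 0.000916) but not without glutamine (-0.13, adjusted p = 0.0895), and with scaling to the total in neither (-0.16 without glutamine, -0.37 without glucose). EBP, a sterol isomerase, had 28.4 FPKM without glutamine, 25.3 and 29.1 FPKM without glucose, and 37.9 and 40.5 FPKM in the control libraries. All deprived libraries of EBP lay below the controls, with log2 fold changes of -0.45 ± 0.08 and -0.52 ± 0.07 (adjusted p = 0.00286 and 0.000488, limma); without control replicate 2 the call without glutamine was lost (0.0613). That call was also lost after cyclic loess (-0.07, adjusted p = 0.492) and with scaling to the total (-0.15, adjusted p = 0.586), and both calls with no filter on low values (adjusted p = 0.0880 and 0.0548).

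Of the later steps, SC5D, the desaturase, was lower in both deprivations (-0.27 and -0.21, adjusted p = 0.00412 and 0.00395, limma), as was DHCR7, the reductase of a final step (-0.40 and -0.16, adjusted p = 0.00123 and 0.0289). The call of SC5D was lost without control replicate 1 in both (0.0528 and 0.0618) and without control replicate 2 in glucose deprivation (0.0536), and in both after cyclic loess (-0.02 and -0.08), and with scaling to the total its change without glutamine had the opposite sign (0.04, adjusted p = 0.907). The call of DHCR7 without glutamine was lost after cyclic loess (-0.07, adjusted p = 0.364) and with scaling to the total (-0.10, adjusted p = 0.731). The call of DHCR7 without glucose was lost without control replicate 1 (0.158), control replicate 2 (0.177) or glucose-deprived replicate 1 (0.098), and had the opposite sign after cyclic loess (0.04, adjusted p = 0.565). LSS, which closes the ring earlier in the pathway, was not called in either deprivation (0.09 ± 0.06 and 0.12 ± 0.05, adjusted p = 0.254 and 0.0737) and lay between 10.7 and 12.3 FPKM in all 5 libraries.

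**Figure D3:**
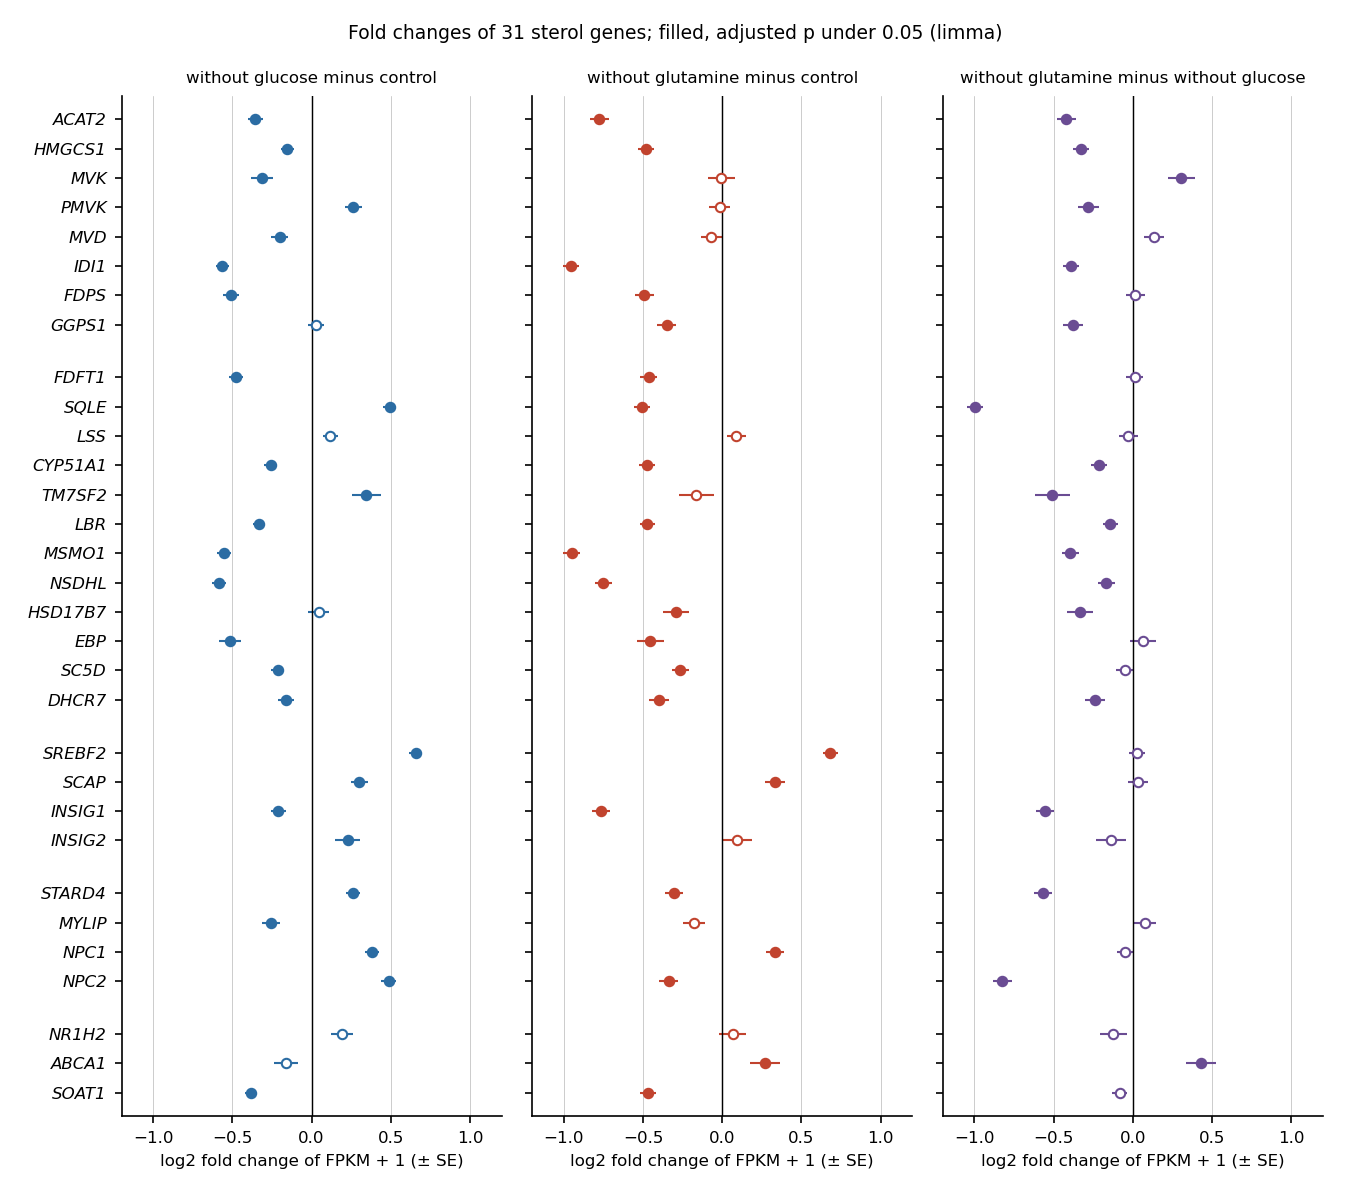
Log2 fold change of FPKM + 1 (x axes, ± SE) of the 31 members in glucose deprivation against control, glutamine deprivation against control, and glutamine against glucose deprivation; filled points have an adjusted p under 0.05 (limma). Most synthesis genes lie left of 0 in the first 2 panels, SREBF2 lies at 0.66 and 0.68, and SQLE and NPC2 lie farthest left in the third, at -0.996 and -0.825.

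Among the 4 genes of uptake and transport, 1 was higher and 2 lower without glutamine, and 3 were higher and 1 lower without glucose. They summed to 28.2 FPKM without glutamine, 38.7 and 38.9 FPKM without glucose, and 31.8 and 32.1 FPKM in the control libraries. At this scaling the controls thus lay between the deprivations. The sum includes MYLIP, whose product marks lipoprotein receptors for breakdown, and no receptor gene, so it does not measure uptake. NPC2, the soluble lysosomal protein that hands cholesterol from digested lipoproteins to NPC1, had 8.45 FPKM without glutamine, 15.5 and 16.0 FPKM without glucose, and 10.9 and 11.1 FPKM in the control libraries. The pattern was that of SQLE, with log2 fold changes of -0.34 ± 0.06 without glutamine (adjusted p = 0.00231, limma) and 0.49 ± 0.05 without glucose (adjusted p = 0.000129). STARD4, a cytosolic carrier of cholesterol and a known target of SREBP2, had 6.15 FPKM without glutamine, 9.57 and 9.62 FPKM without glucose, and 7.77 and 7.90 FPKM in the control libraries. STARD4 too was lower without glutamine (-0.30 ± 0.05, adjusted p = 0.00239, limma) and higher without glucose (0.26 ± 0.04, adjusted p = 0.00161). Both rises without glucose stood under every alternative run. With scaling to the total the falls without glutamine were not called (-0.05 for NPC2 and -0.03 for STARD4, adjusted p = 0.858 and 0.930, limma). That of NPC2 was not called after cyclic loess (adjusted p = 0.0867), and that of STARD4 not on the values as deposited (adjusted p = 0.0558). The fall of STARD4 also lost its call with the GC and length trend removed. With a replicate block in that fit, both falls lost their calls.

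NPC1, the lysosomal membrane protein that receives cholesterol from NPC2, was higher in both deprivations. It had 6.43 FPKM without glutamine, 6.65 and 6.70 FPKM without glucose, and 4.78 and 5.02 FPKM in the control libraries. The 3 deprived libraries lay close together above the controls, at 0.33 ± 0.05 and 0.38 ± 0.04 on the log2 scale (adjusted p = 0.00162 and 0.000273, limma), and both calls stood under every alternative run. Exons of NPC1 overlap those of RMC1 (5.87 to 9.16 FPKM) and exons of NPC2 those of ISCA2 (5.15 to 7.61 FPKM), both on the opposite strand. MYLIP, an LXR target whose product marks lipoprotein receptors for breakdown, had 7.21 FPKM without glutamine, 6.57 and 6.99 FPKM without glucose, and 8.24 and 8.36 FPKM in the control libraries. All 3 deprived libraries of MYLIP lay below the controls, but it was called only without glucose (-0.26 ± 0.06, adjusted p = 0.00558, limma; -0.18 ± 0.07, adjusted p = 0.0592 without glutamine), and that call was lost when either control replicate was left out (0.0618 and 0.0706).

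Of the 3 genes of LXR signalling, efflux and storage, SOAT1 was lower in both deprivations. SOAT1, which makes the cholesteryl esters of lipid droplets, had 11.99 FPKM without glutamine, 12.6 and 12.9 FPKM without glucose, and 16.9 and 17.0 FPKM in the control libraries. The deprived libraries lay together below the controls, at -0.47 ± 0.05 and -0.38 ± 0.04 on the log2 scale (adjusted p = 0.000193 and 0.000158, limma); both calls were lost with scaling to the total (-0.17 and -0.28, adjusted p = 0.512 and 0.159). ABCA1, the exporter that loads cholesterol onto apolipoproteins and an LXR target, was the least abundant member. It had 1.00 FPKM without glutamine, 0.452 and 0.515 FPKM without glucose, and 0.648 and 0.670 FPKM in the control libraries. ABCA1 entered the test only through the glutamine-deprived library, the sole one to reach 1 FPKM, so its calls carry little weight: its log2 fold change was 0.27 ± 0.09 without glutamine (adjusted p = 0.0428, limma) and -0.16 ± 0.08 without glucose (adjusted p = 0.109). The call without glutamine was lost without any one of the 4 control or glucose-deprived libraries (adjusted p = 0.0628 to 0.161, limma) and had the opposite sign after cyclic loess (-0.11, adjusted p = 0.398). NR1H2, which encodes the LXR form found in most cell types, was not called in either deprivation (0.07 and 0.19, adjusted p = 0.548 and 0.0508).

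Set directly against each other, with dialyzed serum on both sides, the deprivations differed in 18 of 31 members, 2 higher and 16 lower without glutamine than without glucose. Over all genes 44.5% were called, 22.4% as higher and 22% as lower, and the members' median was -0.14 against 0.01 for all genes tested. Of the 4472 genes of 10 FPKM or more, 43.7% were called lower, with a median of -0.13. Of the 21 members in this range, 13 were called lower (61.9%), with a median of -0.21. After cyclic loess the median of all members was -0.04, and 11 were lower. The share of all calls that were higher was 50.4%, against 67.9% on the values as deposited, 38.7% with upper-quartile scaling and 86.3% with scaling to the total, which moved the median of all genes to 0.20, that of the members to 0.03 and the number of members lower to 2. On the log2 scale the largest difference was that of SQLE, whose mean without glutamine was 0.490 of that without glucose (-0.996 ± 0.051 on the log2 scale, adjusted p = 3.28e-05, limma). NPC2 (-0.82 ± 0.06, adjusted p = 8.67e-05), STARD4 (-0.57 ± 0.05, adjusted p = 0.000220) and INSIG1 (-0.55 ± 0.06, adjusted p = 0.000346) followed. The calls of SQLE and NPC2 stood under every alternative run, while scaling to the total ended those of STARD4 (-0.41, adjusted p = 0.104) and INSIG1 (-0.36, adjusted p = 0.177).

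Of the synthesis genes that fell without glutamine, several were also lower than without glucose. ACAT2 (-0.42), IDI1 and MSMO1 (-0.39 and -0.40), GGPS1 (-0.38) and HMGCS1 (-0.33) had adjusted p-values of 0.000820 to 0.00198 (limma). TM7SF2 was also lower without glutamine than without glucose (-0.51 ± 0.11, adjusted p = 0.00808, limma). Against control, TM7SF2 and PMVK were not called without glutamine and were called higher without glucose (0.34 and 0.26). Smaller differences were called for HSD17B7 (-0.33), PMVK (-0.28), DHCR7 (-0.24), CYP51A1 (-0.21), NSDHL (-0.17) and LBR (-0.14), with adjusted p-values of 0.0104 to 0.0433. These 6, TM7SF2 and the higher MVK (0.31, adjusted p = 0.0224) lost their calls when either control replicate was left out, which left 9 members lower (adjusted p = 0.0507 to 0.127). When either glucose-deprived replicate was left out, the calls of LBR, NSDHL and MVK were lost (0.062 to 0.118), with HSD17B7 lost without replicate 1 (0.071) and PMVK without replicate 2 (0.0514). With scaling to the total, LBR (0.06) and NSDHL (0.03) had the opposite sign and were not called. The calls of ACAT2 (-0.23), MSMO1 (-0.21), IDI1 (-0.20), GGPS1 (-0.19) and HMGCS1 (-0.14) were lost there too, as was that of TM7SF2. That of GGPS1 was also lost with the GC and length trend removed and a replicate block. On the values as deposited, HSD17B7, PMVK, DHCR7, CYP51A1, NSDHL and LBR were not called.

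SREBF2 (0.03 ± 0.05, adjusted p = 0.707, limma), SCAP (0.03 ± 0.06), NPC1 (-0.05 ± 0.05), FDPS (0.02 ± 0.06), FDFT1 (0.01 ± 0.05) and EBP (0.06 ± 0.08) were not called between the deprivations. A p above the threshold does not show that they were alike, and after cyclic loess SREBF2 was called higher without glutamine (0.15, adjusted p = 0.0407). INSIG2, LSS, MVD, SC5D, MYLIP, NR1H2 and SOAT1 were not called either, with adjusted p-values of 0.136 to 0.714. ABCA1 was the other member called higher (0.43 ± 0.09, adjusted p = 0.00734), with the same limit as above.

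Read across both deprivations against control, 14 members were lower in both: ACAT2, HMGCS1, IDI1, FDPS, FDFT1, CYP51A1, LBR, MSMO1, NSDHL, EBP, SC5D, DHCR7, INSIG1 and SOAT1. SREBF2, SCAP and NPC1, 3 genes, were higher in both. SQLE, STARD4 and NPC2, 3 genes, were lower without glutamine and higher without glucose. LSS and NR1H2 were called in neither. The calls that stood under every alternative run were those of SREBF2 and NPC1 as higher and of ACAT2, IDI1, MSMO1 and NSDHL as lower without glutamine, and of SREBF2, NPC1, SQLE, STARD4 and NPC2 as higher and of IDI1, FDPS, MSMO1 and NSDHL as lower without glucose. The deprivations share their controls, so the size of these overlaps is not a result in itself.

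**Figure D4:**
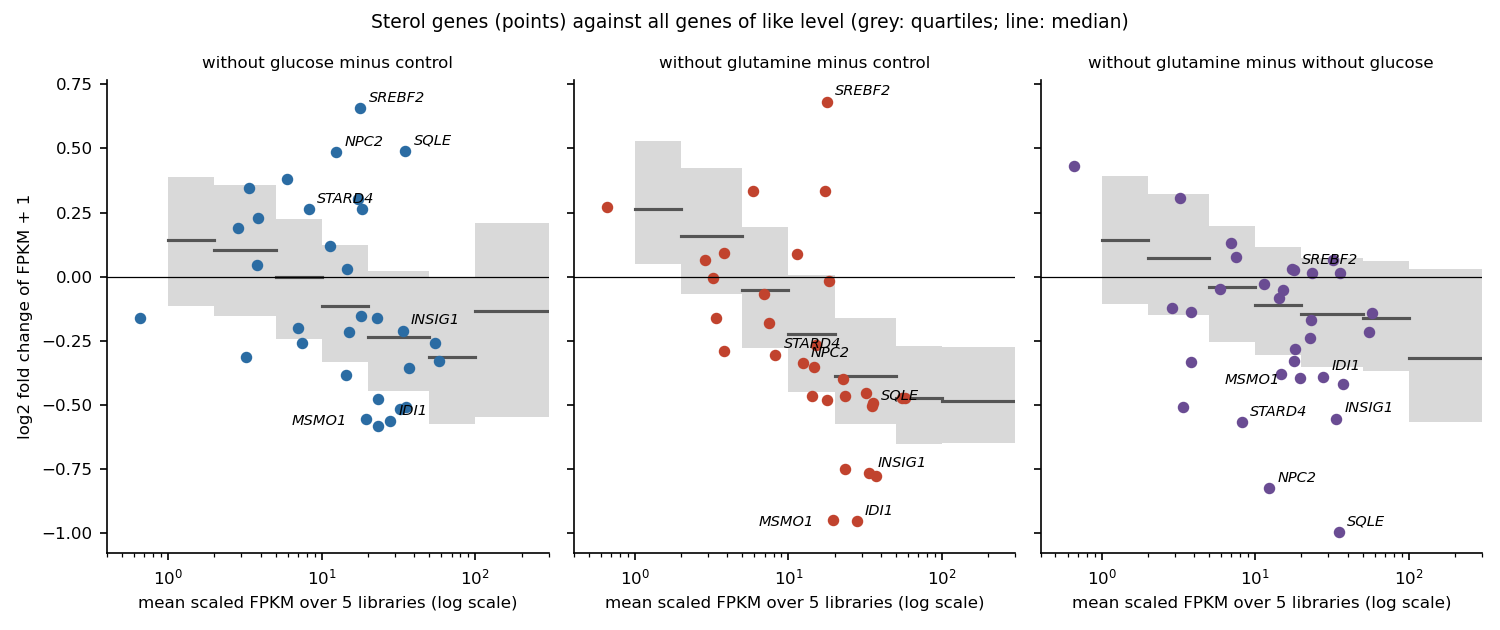
Log2 fold change of FPKM + 1 (y axes) against the mean scaled FPKM over the 5 libraries (x axes, log scale) for the 31 members (points), with the quartiles (grey) and median (line) of all tested genes in bins of level. Without glutamine the median of all genes falls from 0.16 at 2 to 5 FPKM to -0.39 at 20 to 50 FPKM, most synthesis genes lie near or below it, and SREBF2 lies far above it.

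Against genes of their own abundance, the members spread to both sides. All tested genes were divided into bins of mean level, and 30 members lay in a bin (ABCA1, below 1 FPKM, did not). By construction 1 gene in 4 of a bin lies below its lower quartile and 1 in 4 above its upper quartile. Without glutamine, 10 of the 30 members lay below the lower quartile of their bin and 4 above the upper; without glucose, 9 lay below and 7 above. Of glutamine against glucose deprivation, 11 lay below and none above. These positions are descriptions, with no test.

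Without glutamine, the 1388 genes with a mean of 20 to 50 FPKM had quartiles of -0.58 and -0.16 around a median of -0.39. Of the 9 members in that range, ACAT2 (-0.78), IDI1 (-0.95), INSIG1 (-0.77) and NSDHL (-0.75) lay below the lower quartile and none above the upper, while SQLE (-0.50) lay within. Among the 2444 genes of 10 to 20 FPKM, with quartiles of -0.45 and 0.01, MSMO1 (-0.95), HMGCS1 (-0.48) and SOAT1 (-0.47) lay below and SREBF2 (0.68), SCAP (0.33) and LSS (0.09) above. In lower bins STARD4 (-0.30), HSD17B7 (-0.29) and TM7SF2 (-0.16) lay below and NPC1 (0.33) above. Without glucose, genes at 20 to 50 FPKM had quartiles of -0.45 and 0.02, with NSDHL (-0.58), IDI1 (-0.56), EBP (-0.52), FDPS (-0.51) and FDFT1 (-0.48) below and SQLE (0.49) above. At 10 to 20 FPKM the quartiles were -0.33 and 0.12, with MSMO1 (-0.56) and SOAT1 (-0.38) below and SREBF2 (0.66), NPC2 (0.49), SCAP (0.30) and PMVK (0.26) above. In lower bins MVK (-0.31) and MYLIP (-0.26) lay below and NPC1 (0.38) and STARD4 (0.26) above.

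Among 74 other genes of sterol metabolism, listed by role, 67 were tested. Without glutamine 16 were higher (23.9%) and 27 lower (40.3%), against 24.6% and 26.4% of all genes tested. Without glucose 16 were higher (23.9%) and 23 lower (34.3%), against 26.5% and 28.3% of all genes tested. The counts by role below stand against these same shares of all genes. Receptors of the lipoprotein receptor family gave the largest rises without glutamine. LRP1, a large endocytic receptor, had 4.89 FPKM without glutamine, 1.65 and 1.73 FPKM without glucose, and 1.17 and 1.18 FPKM in the control libraries (1.44 ± 0.06 without glutamine, adjusted p = 2.07e-05, limma). VLDLR, the very-low-density lipoprotein receptor gene, had 2.76 FPKM without glutamine, 0.915 and 1.199 FPKM without glucose, and 0.697 and 0.813 FPKM in the control libraries (1.10 ± 0.10 without glutamine, adjusted p = 0.000121, limma). Both receptors were also higher without glutamine than without glucose (1.13 and 0.87, adjusted p = 2.86e-05 and 0.000531). LRPAP1, the chaperone of these receptors, was lower in both deprivations (-0.34 and -0.77, adjusted p = 0.000881 and 9.33e-06). Of the 7 genes of lipoprotein uptake, 3 were higher and 2 lower without glutamine, and 1 was higher and 2 lower without glucose.

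Of 12 genes of SREBP processing and ER quality control, 4 were higher and 6 lower without glutamine, and 6 were higher and 2 lower without glucose. RNF145, an ER ubiquitin ligase with a sterol-sensing region, had 8.97 FPKM without glutamine, 16.3 and 18.2 FPKM without glucose, and 10.9 and 11.5 FPKM in the control libraries. ERLIN2, an ER scaffold for protein breakdown, had 7.78 FPKM without glutamine, 14.02 and 14.06 FPKM without glucose, and 10.3 and 10.8 FPKM in the control libraries. In both genes the controls lay between the deprivations, as for SQLE, and the direct differences were -0.87 ± 0.07 for RNF145 and -0.78 ± 0.05 for ERLIN2 (adjusted p = 0.000125 and 6.99e-05, limma). MARCHF6, an ER ubiquitin ligase known to direct breakdown of the SQLE protein, was higher in both deprivations (0.46 ± 0.09 and 0.55 ± 0.07, adjusted p = 0.00401 and 0.000560).

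Among users of isoprenoids, 8 of 14 genes were lower and none higher without glutamine, and 4 were lower and 1 higher without glucose. ZMPSTE24, the protease that processes farnesylated prelamin A, had 16.4 FPKM without glutamine, 16.7 and 17.2 FPKM without glucose, and a mean of 30.9 FPKM in the control libraries (SD 0.141, n = 2), the largest called fall of the 67 genes in each deprivation on the log2(FPKM + 1) scale (-0.87 ± 0.05 and -0.83 ± 0.04, adjusted p = 3.15e-05 and 8.64e-06, limma). In FPKM its mean without glucose was 0.549 of the control, and the lower-abundance genes GRAMD1C (0.42, named after its values were seen) and NCEH1 (0.47) had lower ratios there. RABGGTB, a subunit of the transferase that prenylates Rab proteins, was lower without glutamine than without glucose (-0.64 ± 0.05, adjusted p = 9.61e-05). Of 10 tested sterol enzymes and electron donors, 6 were lower and 1 higher without glutamine, and 7 were lower and 1 higher without glucose. PGRMC1, a haem-binding partner of cytochrome P450 enzymes, fell by 0.68 ± 0.05 on the log2 scale without glutamine (adjusted p = 4.50e-05), and CYB5B, a cytochrome b5, fell by 0.65 ± 0.05 (adjusted p = 6.53e-05). With scaling to the total the calls of RABGGTB (adjusted p = 0.0839), PGRMC1 (0.152) and CYB5B (0.129) were lost.

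Sterol transfer proteins divided evenly, with 6 of 17 tested genes higher and 4 lower without glutamine and 5 in each direction without glucose. VAPB, which tethers transfer proteins to the ER, was higher without glutamine (0.63 ± 0.06, adjusted p = 0.000150, limma), and GRAMD1A, a carrier of plasma membrane cholesterol, was higher without glucose (0.60 ± 0.06, adjusted p = 0.000106). Of 7 tested genes of LXR signalling, esters and oxysterols, 2 were higher and 1 lower without glutamine, and 2 were higher and 3 lower without glucose. NCEH1, a cholesteryl ester hydrolase gene, was lower without glucose (-0.75 ± 0.07, adjusted p = 9.24e-05). RXRA, which pairs with LXR, had 2.80 FPKM without glutamine, 1.24 and 1.34 FPKM without glucose, and 2.00 and 2.07 FPKM in the control libraries, and was higher without glutamine than without glucose (0.73 ± 0.07, adjusted p = 0.000208).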

How the data were processed

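Per the labels' protocols, total RNA was depleted of ribosomal RNA and sequenced in pairs of 150-base reads. The submitters' processing notes name HISAT2 2.0.5, StringTie and hg38; which annotation, StringTie version and strandedness were used is not given in the sources used here. Values were taken as FPKM made and deposited by the authors. No header names the unit: it was inferred from fractional values and from 3886 to 4275 single-exon genes per library, of which 95.1% to 95.7% gave whole reads within 0.05, which also gave the depth. The second value column of the glutamine table is headed with the name of a glucose-deprived library. This 1 column was not mapped to a sample or used, which left 5 of 6 labelled libraries.

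FPKM were divided by trimmed-mean factors (30% of ratios and 5% of abundances trimmed; 0.960 and 0.971 for control, 1.01 and 0.979 for glucose deprivation, 1.08 for glutamine deprivation). Genes of at least 1 scaled FPKM in at least 1 library, 16598, were tested on log2(FPKM + 1) with limma 3.58.1 in R 4.3.3, with a coefficient per group, 2 residual degrees of freedom and a variance trend over inferred reads (FPKM times GENCODE 29 exon length). The steps were tested on simulated data. The members and lists were chosen with earlier results of these data known. All 31 members were named, with values per library for those called with a log2 fold change of at least 0.5 and for 10 set by name, and of the other genes the 3 largest called changes each way per comparison. Alternatives changed the scaling, pseudocount, filter, variance trend, GC and length trend, replicate block, groups in the fit, or left out a library. Gene positions are from GENCODE 29 on GRCh38.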

Additional observations from a re-analysis of the deposited data

How the results depend on the processing

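Over 18 alternatives, the 93 member results gave 1656 values, of which 1419 kept their side of the threshold, 199 lost a call, 27 gained one and 11 changed sign with a call on at least 1 side; among the 1419, 65 changed sign without a call on either side. The sign changes with scaling to the total were SC5D without glutamine (0.0352), and LBR (0.0606) and NSDHL (0.0275) between the deprivations. After cyclic loess they were HMGCS1 (0.00636), DHCR7 (0.0355) and INSIG1 (0.0270) without glucose, PMVK (0.27) and ABCA1 (-0.11) without glutamine, and LBR (0.0496) between the deprivations. With the GC and length trend removed and a replicate block they were GGPS1 (0.0154) without glutamine and LBR (0.0037) between the deprivations.

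Scaling to the total gave 5448 genes called without glucose and 3967 between the deprivations, and 4, 5 and 2 members lower without glutamine, without glucose and between the deprivations. Cyclic loess gave 9 and 11 members lower in the deprivations. Upper-quartile scaling gave 2 members higher without glutamine. Between the deprivations, the values as deposited gave 10 members lower and a fit of only the groups compared gave 9. Members higher there numbered 1 with upper-quartile scaling, cyclic loess, no filter, only the groups compared, or the GC and length trend removed with or without a replicate block, and 0 with a filter of 5 FPKM or a variance trend over level. Leaving out a library gave 5158 to 8172 genes called without glutamine, 5268 to 7619 without glucose and 5045 to 5954 between the deprivations; members higher were 2 to 3, 5 to 9 and 1, and members lower 17 to 19, 11 to 16 and 9 to 13. In most of these the cause was not tested; fits that leave out a library hold fewer samples.

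The groups share replicate numbers, and deviations of same-numbered control and glucose-deprived libraries correlated at -0.02. With 2 libraries in each of these groups this is a single value, and the lone glutamine-deprived library had no part in it. It cannot settle whether equal numbers mark samples handled together. With the replicate block 7558, 8807 and 6347 genes were called without glutamine, without glucose and between the deprivations, with members 3, 9 and 2 higher and 19, 17 and 14 lower. Of 18 results of other genes, 15 kept their call throughout. ABCA1, with 191 inferred reads, has a counting error of 7.23%.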
